A study of Sus scrofa with 26 samples.

Results

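The J-domain proteins, also called DNAJ or HSP40 proteins, were followed as a gene family in the subcutaneous adipose tissue (SCAT) of pigs kept at thermoneutrality (TN) or under heat stress (HS). Members were the genes whose probe was named DNAJA, DNAJB or DNAJC and a number by its gene symbol, its accession or its description. The porcine microarray carried 80 such probes for 35 genes, of 11768 genes named on the array. They comprised 3 genes of subfamily A, 10 of subfamily B and 22 of subfamily C. Of the 80 probes, 67 were named by the gene symbol, 4 by an accession and 9 by the description alone, which records a likeness to a known gene.

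RNA came from 26 castrated male pigs, with 1 pig per array. At TN (24 °C) there were 3 Creole pigs, 4 pigs of the cross between both breeds (F1) and 4 Large White (LW) pigs. Under HS there were 5 pigs of each breed, for which the sample labels give 30 °C, while the design description speaks of 32 °C over 5 days. Pigs of the TN groups were slaughtered before the temperature rose, so temperature, day of slaughter and age cannot be told apart, and blocks of littermates were spread over the groups. The study reported a lower feed intake under heat, which cannot be told apart from temperature either. The arrays lay on 5 slides, each with pigs of both temperatures, and arrays within a group correlated at 0.974 to 0.993. Of 11 adipocyte markers, 10 were measured, with a mean log2 intensity of 18.36 for FABP4 and 17.42 for ADIPOQ. A level below is a log2 intensity after quantile normalization. The levels of different probes are not comparable with each other, and since whole tissue was measured, fewer cells of a type and less RNA per cell cannot be told apart.

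J-domain proteins carry a short domain with a histidine, proline and aspartate motif, by which they stimulate the ATPase of an HSP70 chaperone and hand it a client protein. Subfamilies A and B have glycine-rich regions beside the J domain, as the bacterial DnaJ does, whereas subfamily C shares only the J domain and is diverse. The compartment that the J domain faces sets which HSP70 they serve. This is HSPA8 and its relatives in the cytosol, HSPA5 (BiP) in the endoplasmic reticulum (ER) and HSPA9 (mortalin) in mitochondria. Some members, DNAJB1 above all, are known as heat-inducible genes.

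Several genes had more than 1 probe, but these probes were not always separate stretches of the transcript. For DNAJC19, the mitochondrial import protein with the most probes of the family, 3 of the 60-base probes overlap. The 47 bases that they share are in capitals, and further on A_72_P729858 and A_72_P731313 read differently.
A_72_P796439: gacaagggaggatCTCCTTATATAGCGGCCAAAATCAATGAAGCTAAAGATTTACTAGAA
A_72_P729858: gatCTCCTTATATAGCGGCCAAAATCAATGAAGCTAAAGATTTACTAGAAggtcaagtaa
A_72_P731313: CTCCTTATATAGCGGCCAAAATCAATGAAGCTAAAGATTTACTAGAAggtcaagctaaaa
The probes of DNAJB9, the gene with the largest fall by brightest probe, adjoin each other, and the capitals mark the 8 bases that end the first probe and begin the second.
A_72_P025866: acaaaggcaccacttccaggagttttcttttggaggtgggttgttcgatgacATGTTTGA
O11614: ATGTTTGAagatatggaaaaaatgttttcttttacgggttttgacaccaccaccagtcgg
For DNAJA4, DNAJB11 and DNAJC19, the same 60 bases were printed under 2 probe names. The HS minus TN differences of these identical probes were -0.12 and -0.13 for DNAJA4, -0.18 and -0.18 for DNAJB11, and -0.35 and -0.36 for DNAJC19. Their levels on the same array differed by 0.44 ± 0.11 for DNAJA4, 0.05 ± 0.08 for DNAJB11 and -0.15 ± 0.11 for DNAJC19 (SD, n = 26). Identical probes thus differed in level, whereas their differences between temperatures were nearly equal.

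Of the 35 genes, 31 passed the filter on dim probes. DNAJB5, DNAJC2, DNAJC6 and DNAJC5B, the last with 2 probes, were well above background on 0 to 4 arrays and were not tested. The strand of the probes relative to their transcripts was not checked. The only probes of DNAJB5, DNAJC2 and DNAJC8, and 1 of the 2 probes each of DNAJC5 and DNAJC21, may lie on the opposite strand, so that their signal, or the lack of it, may not be that of the gene. DNAJA1, also of the cytosol, was not analysed here, since no probe met the naming rule for it. Among the tested genes the mean level of the brightest probe ran from 6.01 for DNAJC24 to 12.6 for DNAJB1. Within the 6 groups DNAJC14, an ER membrane protein, had the smallest spread between pigs (residual SD of 0.09). DNAJB4, a cytosolic relative of DNAJB1, had the largest (0.56), where single pigs lay far above the rest of their groups.

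The first question was whether the family differed between HS and TN across breeds. Of the 31 tested genes, 10 were differentially expressed, and each of them was lower in HS: DNAJA2 and DNAJB6 of the cytosol and nucleus, DNAJB9, DNAJB11, DNAJB12 and DNAJC16 of the ER, and DNAJC4, DNAJC15, DNAJC19 and DNAJC30 of mitochondria. On the linear scale DNAJB6 fell by 12.3%, the least of them, and DNAJB9 fell by 19.5%, the most. None was higher by its brightest probe. The count of 10 was 7 without LW TN replicate 2 (the lowest count when 1 array was left out). These 10 genes are 32.3% of the tested members, against 7.67% of all 10127 tested genes that were lower in HS, and 0 members were higher, against 4.87%. The median HS minus TN difference was -0.12 over the members and -0.00 over all genes, and 23 of the 31 members were below 0, against 51.4% of all genes. Counted by probes, 23 of 75 tested were lower and 1 was higher, against 7.02% and 5.17% of all 44703 tested probes.

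Some markers of other cell types differed with temperature as well. Of the red blood cell markers, 2 of the 6 measured genes were lower in HS, led by the beta globin gene HBB with a difference of -0.85 (limma, FDR adjusted p-value = 0.011). Of the 6, only 4 were below 0, with a median of -0.25 over the list. ALAS2, dim at a mean level of 5.96, gave 0.04 (adjusted p = 0.77). The mean score of the 6 genes ranged from 0.03 to 0.47 in TN and from -0.49 to 0.28 in HS. With this score as a covariate, 0 of the 31 members were differentially expressed (7 of the 10 genes had an unadjusted p under 0.05), and 0.375% of all genes were lower in HS. The 10 genes then had adjusted p-values from 0.0866 to 0.426, and their median difference went from -0.23 to -0.20. Over the 31 members, the median ratio of the standard error to that without the covariate was 1.32. Among markers of other types, 4 of 10 fibroblast and matrix genes and 3 of 8 Schwann cell genes rose in HS, and none of 13 skeletal muscle, 9 macrophage, 7 T cell and 4 keratinocyte genes passed. Each of the muscle and keratinocyte genes was nevertheless above 0, with median differences of 0.57 and 0.54, and the muscle score spanned -2.18 to 1.07 in TN and -1.32 to 2.70 in HS. The median was 0.16 for the macrophage and 0.05 for the T cell genes. Of the adipocyte markers, 1 of 10 rose and 1 fell, and of the endothelial markers 1 of 7 fell, with a median of -0.03 in both lists. Over all genes 4.87% were higher and 7.67% lower in HS, and no marker list was tested against these shares. The scores of the fibroblast and matrix genes spanned -0.80 to 0.30 in TN and -0.21 to 0.60 in HS, and those of the Schwann cell genes -0.68 to 0.14 and -0.25 to 0.71. The part of these cells in the DNAJ differences was not tested beyond the covariate.

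**Figure D1:**
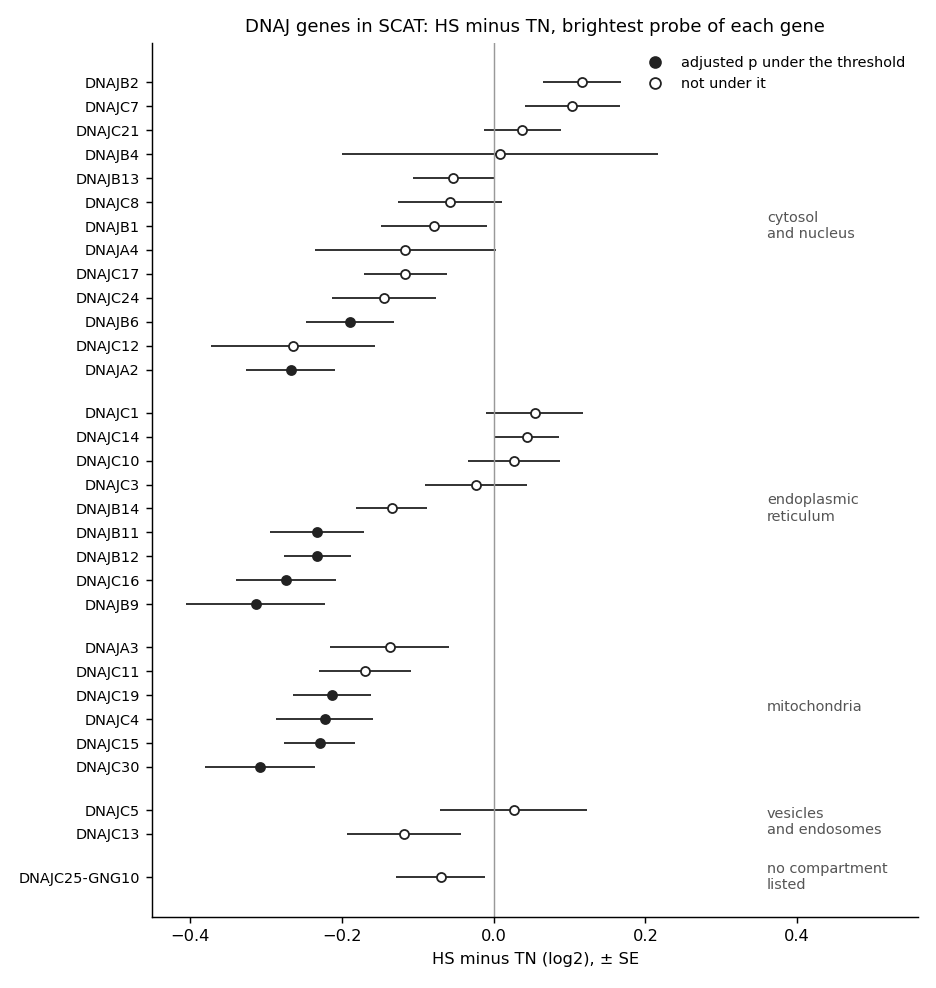
HS minus TN difference (log2, ± SE) of the brightest probe of each of the 31 tested DNAJ genes, grouped by compartment. Filled points are the 10 genes past the threshold, and they lie between -0.31 and -0.19, whereas the highest point is DNAJB2 at 0.12.

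In mitochondria, each of the 6 tested members was below 0, with a median difference of -0.22. Of the 6, 4 passed the test, against 7.67% of all genes that were lower. DNAJC15, an inner membrane protein known for its link to respiratory complex I, had levels of 11.315, 11.421 and 11.568 in TN (lowest, median and highest of 11 pigs) and of 10.917, 11.242 and 11.375 in HS (15 pigs). Its ranges overlapped at the edge, and 11 HS pigs lay below every TN pig. The difference was -0.23 ± 0.05 (SE, limma, FDR adjusted p-value = 0.00227), and its second probe gave -0.15 (adjusted p = 0.0418). DNAJC30, known for binding ATP synthase, had 10.735, 10.876 and 11.291 in TN and 10.415, 10.615 and 10.957 in HS. Again 11 HS pigs lay below every TN pig, with a difference of -0.31 ± 0.07 (adjusted p = 0.00699) and of -0.15 on its second probe (adjusted p = 0.0327).

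DNAJC19 is the J protein of the motor that pulls precursors through the inner membrane. Its brightest probe had 12.069, 12.261 and 12.433 in TN and 11.635, 12.1 and 12.361 in HS. The groups overlapped more, with 5 HS pigs below the TN range, and the difference was -0.21 ± 0.05 (adjusted p = 0.00807). With the red blood cell score as a covariate it was -0.12 ± 0.06 (adjusted p = 0.393), the largest reduction among the 10 genes. Of its 8 probes, 7 fell, with differences of -0.43 to -0.21, and the 3 overlapping probes printed above gave -0.21, -0.28 and -0.25. The remaining probe, the dimmest at a mean level of 7.12, gave -0.13 (adjusted p = 0.353). The 8 probes are not 8 separate stretches, as 3 overlap and 2 others are identical. For DNAJC4, levels were 6.909, 7.2 and 7.407 in TN and 6.703, 6.943 and 7.309 in HS, with a difference of -0.22 ± 0.06 (adjusted p = 0.0239). A dimmer probe likened to DNAJC4 by its description was at 0.36 (adjusted p = 0.0525), so the probes of this gene had opposite signs and their mean gave 0.07 (adjusted p = 0.504). Without LW TN replicate 2, DNAJC4 had an adjusted p of 0.0518.

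The other mitochondrial members did not pass. DNAJA3, a matrix co-chaperone of HSPA9, had a mean of 12.68 ± 0.18 in TN and 12.55 ± 0.28 in HS (SD, n = 11 and 15), with an adjusted p of 0.271. DNAJC11, which belongs to a complex of the cristae and outer membrane, gave -0.17 ± 0.06 (adjusted p = 0.0689).

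In the ER, 4 of 9 tested members fell, against 7.67% of all genes. The 9 members include DNAJB12, whose J domain lies in the cytosol. DNAJB9 (ERdj4), which delivers misfolded proteins for degradation, had 10.01, 10.457 and 10.671 in TN and 9.601, 10.016 and 10.561 in HS. The difference was -0.31 ± 0.09 (adjusted p = 0.0258), and its adjoining probe gave -0.42 (adjusted p = 0.00313). Without Creole TN replicate 3 or LW TN replicate 2 the brightest probe no longer passed (adjusted p = 0.0503 and 0.0537). DNAJB11 (ERdj3), a soluble partner of BiP, had 9.95, 10.08 and 10.303 in TN and 9.566, 9.859 and 10.093 in HS, with 9 HS pigs below the TN range. Its difference was -0.23 ± 0.06 (adjusted p = 0.0154), and its 4 probes lay between -0.23 and -0.16.

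DNAJB12 is anchored in the ER membrane with its J domain in the cytosol. The brightest of its 4 probes had 12.316, 12.533 and 12.749 in TN and 12.128, 12.315 and 12.48 in HS. Every HS pig was below the TN median, with a difference of -0.23 ± 0.04 and the smallest adjusted p of the family by brightest probe (0.00145). Another of its probes had 9.806, 10.02 and 10.198 in TN and 9.329, 9.605 and 9.761 in HS. On that probe the groups did not overlap, the difference was -0.40 ± 0.05 and the adjusted p was 4.1e-05. Only 8 of the 44703 tested probes, 0.0179%, had every HS pig below every TN pig, and this was the 1 among the 75 DNAJ probes. The other probes of DNAJB12 gave -0.14 and -0.15 (adjusted p = 0.0777 and 0.0503). The size of the fall thus varied between the probes of this gene, and the difference between probes was not tested.

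DNAJC16, another ER membrane protein, was named by the description of its probe alone. Its levels were 7.826, 8.095 and 8.444 in TN and 7.399, 7.827 and 8.098 in HS, with a difference of -0.27 ± 0.07 (adjusted p = 0.00856). A second probe of that description gave -0.06 (adjusted p = 0.633), and the mean of both did not pass (adjusted p = 0.0548). DNAJB14, the close relative of DNAJB12, gave -0.13 ± 0.05 on its only probe (adjusted p = 0.0615) and was below its breed's TN mean in 13 of 15 HS pigs.

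The remaining ER members stayed near 0. DNAJC3 (P58IPK), a BiP co-chaperone known from the unfolded protein response, gave -0.02 ± 0.07 (adjusted p = 0.859), with its 3 probes between -0.06 and 0.01. DNAJC10 (ERdj5), a disulfide reductase, gave 0.03 ± 0.06 on a probe named by its description (adjusted p = 0.82). DNAJC1 gave 0.05 ± 0.06 on its brightest probe (adjusted p = 0.629), but its second probe, hardly dimmer, rose by 0.15 ± 0.04 (adjusted p = 0.0182) and was the 1 DNAJ probe that was higher in HS. That probe had 9.117, 9.271 and 9.396 in TN and 9.26, 9.433 and 9.571 in HS. DNAJC14 had 5 probes, all between -0.03 and 0.05.

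In the cytosol and nucleus, 2 of 13 tested members fell, against 7.67% of all genes, and the difference from that share was not tested. DNAJA2, a general co-chaperone of HSPA8, had 10.352, 10.682 and 10.899 in TN and 10.053, 10.448 and 10.611 in HS. In HS every pig was below the TN median, and the difference was -0.27 ± 0.06 (adjusted p = 0.00419), while its other probe gave -0.13 (adjusted p = 0.0625). DNAJB6, which keeps aggregating proteins in solution, had 9.254, 9.571 and 9.744 in TN and 8.941, 9.378 and 9.569 in HS. Its difference of -0.19 ± 0.06 rested on 1 probe (adjusted p = 0.0332) and no longer passed when any 1 of 10 arrays was left out. These arrays were F1 TN replicates 1, 2 and 3, Creole TN replicates 1 and 3, LW TN replicates 2 and 3, LW HS replicates 2 and 4 and F1 HS replicate 3, with adjusted p-values up to 0.0674.

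The heat-inducible DNAJB1 had 12.38, 12.63 and 12.98 in TN and 12.29, 12.63 and 12.84 in HS by its brightest probe, and the groups overlapped almost wholly. The difference was -0.08 ± 0.07 (adjusted p = 0.502), and 4 of its other probes lay between -0.09 and 0.04. The sixth, named by its description alone and dim (mean level of 5.76), was at -0.30 (adjusted p = 0.00279). DNAJB4 was dim, with 6.15 as the median in TN and 6.02 in HS, but single pigs reached 7.61 in TN and 8.01 in HS. Its difference was 0.01 ± 0.21 (adjusted p = 0.985). DNAJA4 gave -0.12 ± 0.12 (adjusted p = 0.572), DNAJB2 0.12 ± 0.05 (adjusted p = 0.144) and DNAJC12 -0.26 ± 0.11 (adjusted p = 0.111). The other DNAJC12 probes gave -0.33 and -0.24, just short of the threshold (adjusted p = 0.0554 and 0.0512). DNAJC7 gave 0.10 ± 0.06 (adjusted p = 0.294). The last 5 members of this compartment, DNAJB13, DNAJC8, DNAJC17, DNAJC21 and DNAJC24, lay between -0.14 and 0.04, with adjusted p-values of 0.168 and more, and the only DNAJC8 probe is among those of uncertain strand.

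Neither vesicle member passed. DNAJC5, the cysteine string protein of secretory vesicles, gave 0.03 ± 0.10 (adjusted p = 0.893) on a probe named by its description, and DNAJC13, an endosomal protein, gave -0.12 ± 0.075 (adjusted p = 0.327), also on a probe named by its description. The record named DNAJC25-GNG10, which joins a DNAJ gene with a neighbouring G protein gene and cannot be assigned to either, gave -0.07 ± 0.06 (adjusted p = 0.481). Without it the count was 10 of 30, or 33.3%.

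**Figure D2:**
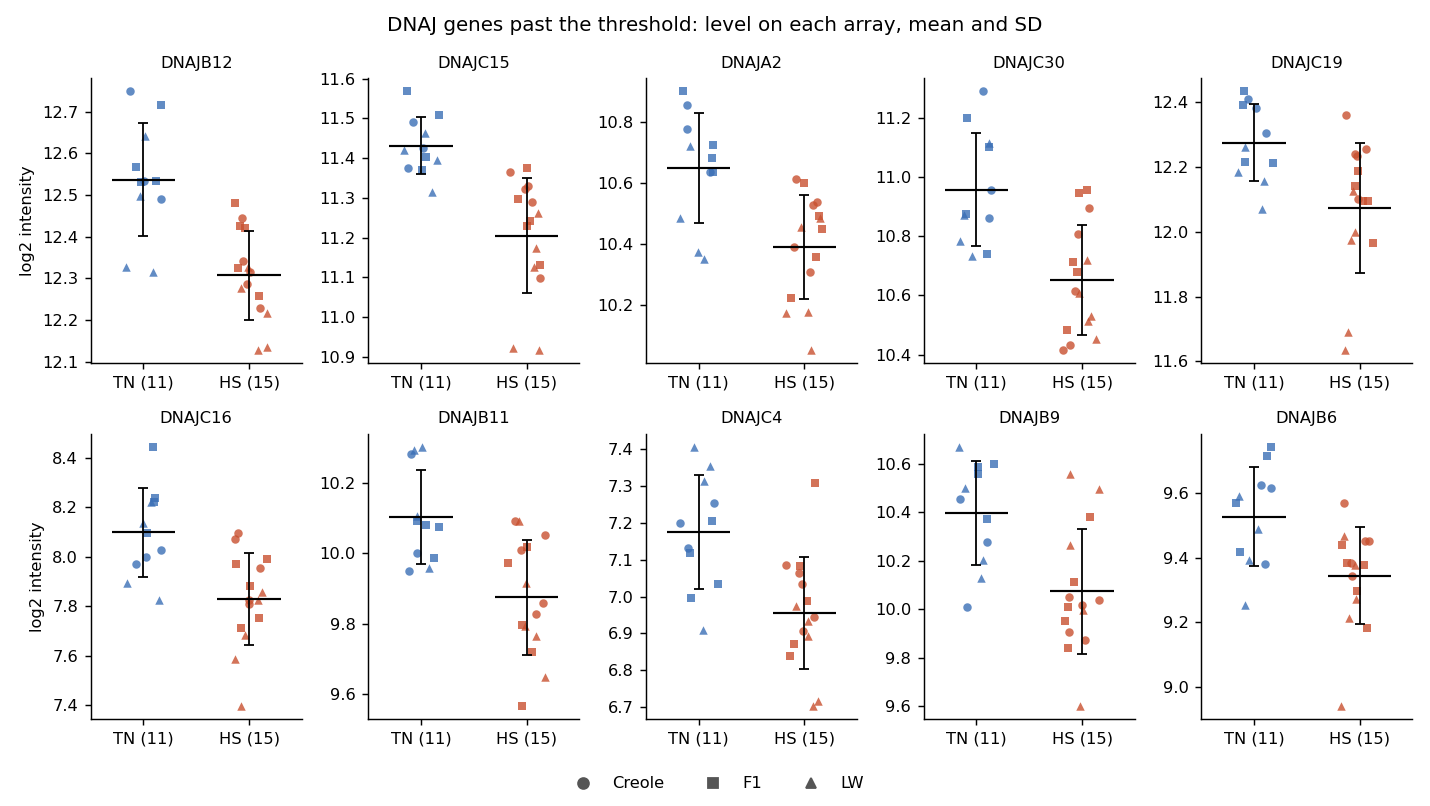
Log2 intensity of the brightest probe on each of the 26 arrays for the 10 DNAJ genes past the threshold, with the mean and SD of TN (11 pigs) and HS (15 pigs) and the breed given by the marker shape. Each HS mean is below the TN mean, and the ranges of TN and HS overlap in each panel.

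Within slides the HS minus TN difference was below 0 on 5 of 5 slides for 8 genes, and on 4 of 5 for DNAJB6 and DNAJC19, where the remaining slide gave 0.05 and 0.03. The slides differed in their mix of breeds. Against the TN mean of the own breed, from 13 to 15 of the 15 HS pigs were lower for each of the 10 genes, with 15 for DNAJB12, DNAJC15, DNAJC19 and DNAJC30. The 10 genes were chosen by their difference on the same arrays, so these counts by slide and by pig are no separate support.

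**Figure D3:**
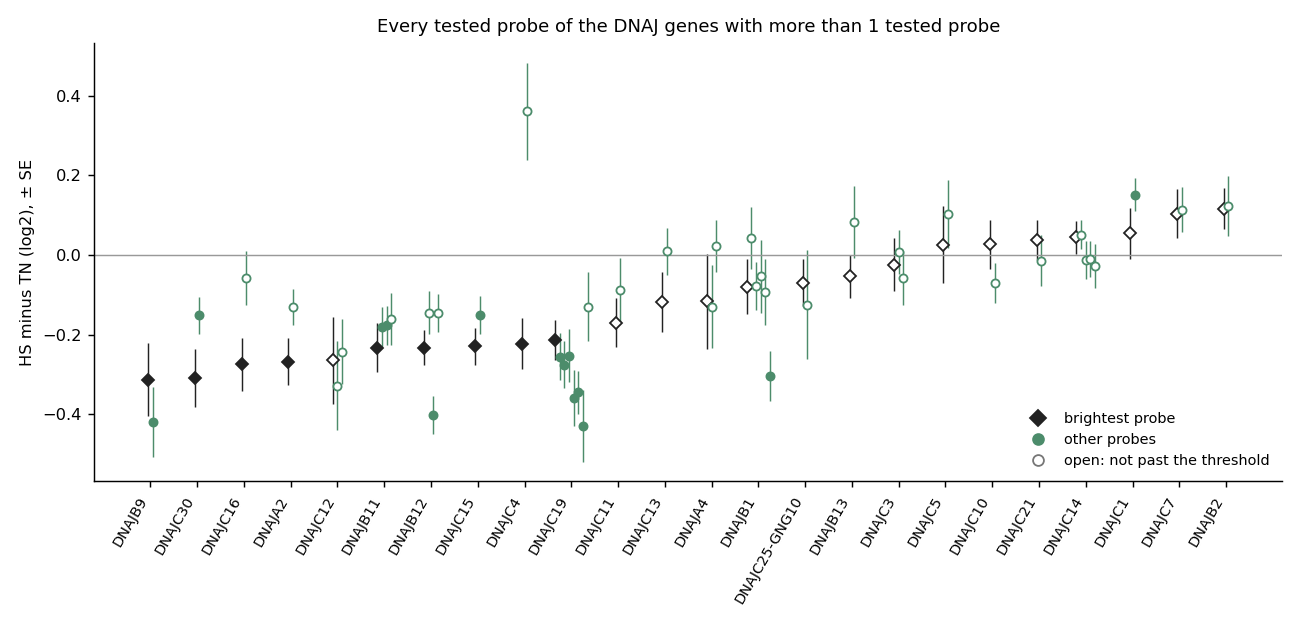
HS minus TN difference (log2, ± SE) of every tested probe for the 24 DNAJ genes with more than 1 tested probe, with the brightest probe as a black diamond and filled symbols past the threshold. The 8 probes of DNAJC19 are below 0, whereas those of DNAJC4 lie at -0.22 and 0.36.

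Of the 24 genes with more than 1 tested probe, 15 had the same sign on all of them. No gene had probes past the threshold in opposite directions. The polyadenylation hexamer AATAAA, on the strand as printed, occurred in 6 of the 80 DNAJ probes (7.5%) and in 10.3% of all 60305 probes.

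Partner genes were set beside the family. Of all genes 7.67% were lower and 4.87% higher in HS, and no partner list was tested against these shares. Of the 13 tested HSP70 genes, 3 fell and 0 rose, with a median difference of -0.10. HSPA14, of the ribosome-associated complex, had 8.41, 8.63 and 8.82 in TN and 7.99, 8.34 and 8.73 in HS and gave -0.27 ± 0.07 (adjusted p = 0.0105). HSPA13 gave -0.25 ± 0.08 (adjusted p = 0.0363) and HSPA12A gave -0.49 ± 0.16 (adjusted p = 0.0404). The main partner of each compartment did not pass: HSPA5 of the ER gave -0.10 ± 0.05 (adjusted p = 0.217), HSPA8 of the cytosol gave -0.19 ± 0.15 (adjusted p = 0.432), and HSPA9 of mitochondria gave 0.01 ± 0.07 (adjusted p = 0.966) on a dim probe.

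Mitochondrial import genes were the partner list with the largest share of calls, as 4 of 7 fell, with a median difference of -0.21. TIMM17A, a channel subunit of the inner membrane, had 12.36, 12.67 and 13.02 in TN and 11.93, 12.13 and 12.80 in HS and gave -0.41 ± 0.10 (adjusted p = 0.00782). TIMM17B gave -0.18 ± 0.05 (adjusted p = 0.0205), and TIMM44, which tethers HSPA9 and the J protein to the channel, gave -0.29 ± 0.10 (adjusted p = 0.0458). TOMM40, the outer membrane pore, gave -0.23 ± 0.06 at a low level (adjusted p = 0.0169). Among the nucleotide exchange factors and other cofactors of HSP70, 0 of 8 passed (median -0.05). Of 9 genes of the HSP90 and HSF list, 1 passed: HSP90B1, the HSP90 of the ER, rose by 0.21 ± 0.05 (adjusted p = 0.0112), whereas the ER members DNAJB9 and DNAJB11 fell. The J proteins SEC63, HSCB and GAK, which do not carry the DNAJ name, gave 0.04, -0.09 and -0.08 and did not pass (adjusted p = 0.799, 0.458 and 0.464).

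The second question was whether the breeds differed in their response. At an unadjusted p under 0.05 (limma) there were 3 members in Creole, 9 in F1 and 10 in LW pigs. The share of all genes at that unadjusted threshold was not counted. After adjustment 0 members passed within Creole and F1 pigs, against 0.079% and 0.395% of all genes. Within LW pigs 2 passed, against 1.42%: DNAJC4 with -0.40 ± 0.10 (adjusted p = 0.0442) and DNAJC15 with -0.32 ± 0.08 (adjusted p = 0.039). The count was 0 with slide as a fixed block and 0 with the red blood cell score as a covariate. It was also 0 without any 1 of LW HS replicates 2, 3 and 4 and LW TN replicates 2, 3 and 4. It was 1 without any 1 of 10 other arrays (Creole HS replicates 1, 2 and 4, Creole TN replicates 1, 2 and 3, F1 TN replicates 1 and 2, F1 HS replicate 3 and LW HS replicate 1) and 3 without LW HS replicate 5. The median difference of the 31 members was -0.11 in Creole, -0.09 in F1 and -0.16 in LW, against -0.01, -0.01 and 0.01 over all genes. Below 0 in all 3 breeds at once were 18 members, including the 10 genes that fell across breeds. Those 10 were chosen by their difference over the same pigs, so their signs are no separate evidence. The share of all genes below 0 in all 3 breeds was not counted.

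The breed by temperature interaction passed for 0 of the 31 members and 0 of all genes (limma, 0 members and 5.47% of all genes at an unadjusted p under 0.05). The smallest interaction p of the members were those of DNAJC16 (0.0791), DNAJC1 (0.0833) and DNAJC4 (0.0855), each with an adjusted p of 0.897. DNAJC16 gave -0.05 ± 0.11 in Creole, -0.39 ± 0.10 in F1 and -0.35 ± 0.10 in LW. DNAJC4 gave -0.19 ± 0.11, -0.07 ± 0.10 and -0.40 ± 0.10 in the same order, and DNAJC1 was at 0.19, -0.13 and 0.13. A difference in response between breeds was not detectable with these numbers of pigs.

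**Figure D4:**
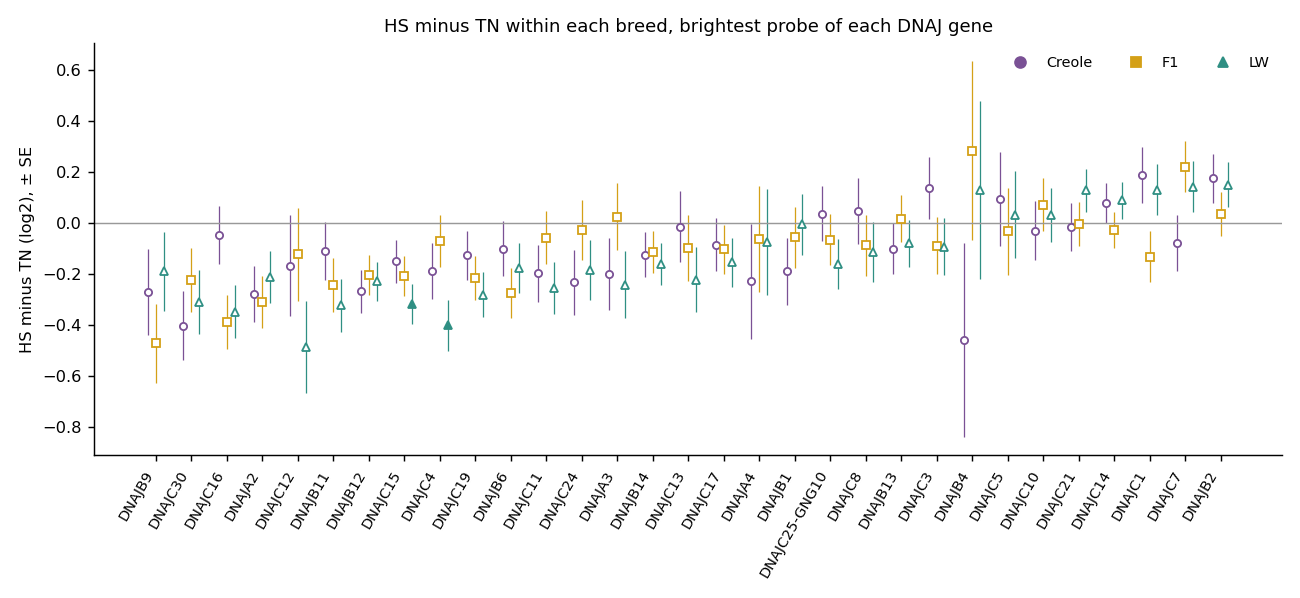
HS minus TN difference (log2, ± SE) within Creole, F1 and LW pigs for the brightest probe of each of the 31 DNAJ genes, in the order of the difference across breeds. Filled symbols mark the 2 values past the threshold, DNAJC15 and DNAJC4 in LW, and the widest spread between breeds is that of DNAJB4, from -0.46 in Creole to 0.28 in F1. Its dim probe was at 7.614 in Creole TN replicate 3 and at 8.008 in F1 HS replicate 1, each far above the rest of its group.

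The third question was the difference between the parental breeds. By brightest probe, 4 of the 31 members were lower in LW than in Creole (12.9%, against 8.62% of all genes) and 1 was higher (against 6.65%). For DNAJB2, DNAJC3, DNAJC11, DNAJC14 and DNAJC30 a dimmer probe was lower in LW while the brightest did not pass. Those dimmer probes gave -0.36, -0.20, -0.39, -0.23 and -0.18 (limma, adjusted p from 0.00727 to 0.0481). The median LW minus Creole difference of the members was -0.09, and 23 of them were below 0, against 52.2% of all genes. DNAJC7, a protein with tetratricopeptide repeats that links HSP70 and HSP90, was the 1 that was higher. Its levels were 11.457, 11.709 and 12.008 in Creole (lowest, median and highest of 8 pigs), 11.372, 11.729 and 11.994 in F1 (9 pigs) and 12.036, 12.245 and 12.351 in LW (9 pigs). Every LW pig was above every pig of the other breeds, and Creole and F1 overlapped. The LW minus Creole difference was 0.50 ± 0.08 (adjusted p = 0.000269), or 0.37 at TN and 0.59 in HS, and its second probe gave 0.54 (adjusted p = 5.8e-05). Every LW pig was above every Creole pig on both DNAJC7 probes, 2 of the 75 DNAJ probes, against 0.318% of all probes.

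DNAJC12, a co-chaperone of the aromatic amino acid hydroxylases, had the largest difference of the family. It had 8.777, 9.316 and 9.86 in Creole, 8.472, 8.954 and 9.416 in F1 and 7.88, 8.434 and 8.917 in LW. In LW, 7 of the 9 pigs were below every Creole pig, and the difference was -0.80 ± 0.13 (adjusted p = 0.00052), so that on the linear scale it decreased by 42.7%. Its 3 probes gave -0.87 to -0.47, and each of them passed. LW replicate 4 of HS had the lowest level.

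The other 3 genes were lower in LW by less. DNAJC19 had 12.1, 12.281 and 12.41 in Creole, 11.965, 12.187 and 12.433 in F1 and 11.635, 12.069 and 12.261 in LW. Its difference was -0.29 ± 0.06 (adjusted p = 0.00392). Of its 8 probes, which are not all separate stretches, 5 passed. DNAJA3 gave -0.32 ± 0.10 (adjusted p = 0.0266) and DNAJA2 gave -0.23 ± 0.07 (adjusted p = 0.0293). The other probe of DNAJA2 gave -0.05 (adjusted p = 0.635), and the mean of both gave -0.14 (adjusted p = 0.0768). With slide as a fixed block DNAJA2 gave -0.18 (adjusted p = 0.0671), and without the temperature term -0.22 (adjusted p = 0.15), so its breed difference did not pass under these choices. By their brightest probes DNAJA2 and DNAJC19 were among the genes lower in both comparisons. DNAJA3 did not pass without LW HS replicate 3, Creole HS replicate 3 or Creole TN replicate 2, with adjusted p-values up to 0.0631. DNAJA2 did not pass without any 1 of 8 arrays (Creole HS replicates 1 and 3, Creole TN replicate 3, LW HS replicates 2, 3 and 4, LW TN replicates 1 and 4), with adjusted p-values up to 0.061. The count of lower genes was 2 without LW HS replicate 3 or Creole HS replicate 3.

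**Figure D5:**
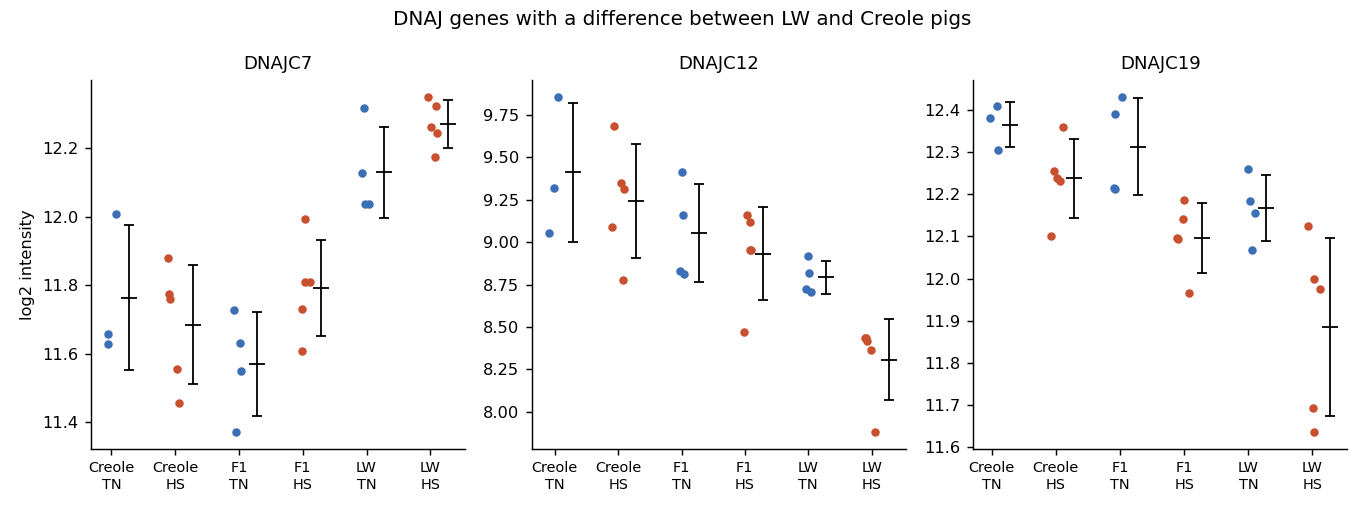
Log2 intensity of DNAJC7, DNAJC12 and DNAJC19 on each array by breed and temperature, with the mean and SD of each group beside its 3 to 5 pigs. LW pigs have DNAJC7 levels of 12.036 or more, above each Creole and F1 pig, and the lowest levels of DNAJC12 and DNAJC19 are those of LW pigs under HS.

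The last comparison set the F1 pigs against the mean of their parental breeds. Of the 31 members 0 passed, as did 0 of all genes (limma, with 1 member and 8.49% of all genes at an unadjusted p under 0.05). DNAJC7 had the smallest p (0.000359, adjusted p = 0.124), with F1 at -0.27 ± 0.06 from the mid-parent value, and the F1 range overlapped that of Creole as given above. DNAJB12 gave 0.09 ± 0.05 (adjusted p = 0.581) and the record DNAJC25-GNG10 gave -0.12 ± 0.06 (adjusted p = 0.588).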

How the data were processed

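The authors scanned one-colour arrays with Agilent Feature Extraction 10.10.1.1 (per the labels) and deposited, for each spot, median, mean, background and processed intensity, and other columns with quality flags. They also deposited a series matrix of log2 quantile-normalized intensity for 44104 probes, used as an alternative. Each array had 60306 spots other than controls, of which 41314 to 46185 were well above background.

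No background was subtracted. The median intensities were brought to equal quantiles and to log2 with limma 3.58.1 in R 4.3.3. Non-uniform spots were set to missing. The test took the 44703 probes that exceeded background clearly on 8 arrays or more. Linear models with breed and temperature, or 6 group means, were fitted with eBayes and an intensity trend, and p-values were adjusted by Benjamini-Hochberg over all tested probes (threshold 0.05). Checks on simulated data were run. Each gene was represented by its brightest tested probe. Pen, slaughter day and parents, used by the authors, are not in the labels, so p-values measure the spread between pigs as if independent.

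Named genes were those past the threshold, 13 fixed members, the 5 breed differences, the smallest p of the interaction and of F1, and up to 5 genes per partner list; the remaining members were named after their values were seen. Members and lists were chosen with earlier results of these data known. Genome positions, promoters and proteins were not analysed here.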

Additional observations from a re-analysis of the deposited data

Results flagged for a closer look

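Within the 5 groups of 4 or 5 pigs, 105 sets of values of the 21 named genes were examined for a pig far from the others of its group, and 8 were found, where chance gives about 1 in 20. DNAJB4 had 3 of them: F1 HS replicate 1 was highest at 8.008 (next 6.043), LW HS replicate 1 was highest at 7.045 (next 6.183), and F1 TN replicate 3 was lowest at 5.947 (next 6.149). DNAJC12 was lowest in LW HS replicate 4 at 7.88 (next 8.364). DNAJC13 was highest in LW TN replicate 3 at 8.271 (next 7.524), and DNAJC1 was highest in F1 TN replicate 2 at 9.741 (next 9.533). DNAJC15 was lowest in Creole HS replicate 5 at 11.099 (next 11.29), and DNAJC25-GNG10 was lowest in LW HS replicate 2 at 11.155 (next 11.404). These are log2 intensities of the brightest probe, and their cause was not tested. No member differed between breeds in its response by the interaction test.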

How the results depend on the processing

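The count of 10 DNAJ genes lower in HS lay between 8 and 12 under 11 of 13 processing alternatives. It was 0 with the red blood cell marker score as a covariate and 5 with the probe of lowest mean level, where 1 gene (DNAJC1) was higher. Without 1 array the lower count ranged from 7 to 11, and the higher count was 0. The LW minus Creole count of 4 lower genes was 7 with the processed signal and ranged from 2 to 5 without 1 array. The count of 2 in LW pigs was 1 with the processed signal, with normexp or with the mean of all probes. It was 0 with no filter on dim probes, with slide as a fixed block, with the marker score and with the probe of lowest mean level, and ranged from 0 to 3 without 1 array. Differences that changed sign in HS minus TN were those of DNAJB4 (-0.0517 with slide as a fixed block, -2e-04 as a random block, -0.017 with array weights, -0.134 to 0.1837 without 1 array), DNAJC10 (-0.0214 with the mean of probes, -0.0696 with the probe of lowest level), DNAJC13 (0.009 with the probe of lowest level), DNAJC4 (0.0693 with the mean of probes, 0.3612 with the probe of lowest level), DNAJC5 (-0.0153 with the marker score, -0.0172 to 0.0644 without 1 array) and DNAJC3 (-0.0627 to 0.0152 without 1 array). In F1 minus mid-parent, DNAJB12 gave -0.0157 with the probe of lowest level. Calls were also lost for DNAJB6 and DNAJC19 without the breed term (adjusted p = 0.0672 and 0.0652) and for DNAJC4 with the processed signal (0.0636). In LW minus Creole, the call of DNAJA2 was lost with slide as a fixed block (0.0671). The causes were not tested. Over 28 single-gene results, 318 of 353 values under processing alternatives and 690 of 728 without 1 array kept their direction and side of the threshold. No paired analysis was possible because the labels give no replicate numbers shared between groups. Signal over background limits the dim probes, such as those of DNAJB4, DNAJC8 and DNAJC24.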
